A study of Mus musculus with 11 samples.

Results

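Pericytes of the E14.5 mouse dorsal telencephalon were chosen by measured UMIs (unique molecular identifiers, 1 for each captured RNA molecule) in a pair of single-cell RNA-seq (scRNA-seq) libraries. A barcode entered when 500 genes or more were found in it, mitochondrial UMIs made up no more than 10%, and it had at least 5 UMIs over Rgs5, Pdgfrb, Kcnj8 and Abcc9 (the mural sum), at most 4 over the endothelial genes Cldn5, Flt1, Kdr and Pecam1, and at most 4 over the fibroblast genes Lum and Dcn. This gave 58 cells of 17327 kept cells, or 0.335%, which held 883253 UMIs. The UMIs selected the cells, so every difference between pericytes and other cells below is a description and no test was run on it.

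The study asked what the RNA-binding protein Syncrip does in neural progenitors, and the deposited single-cell data compared dorsal cortex of 1 wild-type (WT) embryo with that of 1 conditional knockout (cKO) embryo from the same pregnant mouse, on a C57BL/6 background. In the cKO, loxP sites surround exons of both Syncrip copies and Emx1-Cre removes them. Emx1-Cre acts in dorsal telencephalic progenitors and the cells they make, whereas forebrain pericytes arise largely from neural crest, so the pericytes of the cKO embryo would lie mostly outside the lineage in which this Cre acts. The WT library held 8289 barcodes, 8007 kept cells and 34 pericytes, and the cKO library 9659 barcodes, 9320 kept cells and 24 pericytes, against about 6000 cells per channel stated by the labels and about 3000 recovered from that load by the methods, so both libraries held more kept cells than either. With 1 embryo per genotype there is no replicate, so no p-value is given between WT and cKO, all intervals are 95% and cover counting error only, and genotype cannot be told apart from embryo or library. The embryos also differed in sex: the pericytes held 0 Xist UMIs in WT and 294 in cKO, and 83 and 2 UMIs of Y-linked genes.

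Pericytes are mural cells that sit inside the basement membrane of capillaries and small vessels, wrapped around the endothelium. Endothelial cells recruit them with platelet-derived growth factor B, which binds the receptor Pdgfrb on the pericyte, and Notch signaling through Notch3 and its target Heyl supports their differentiation. In the developing brain they are known for stabilizing new vessels and for inducing barrier properties in the endothelium, and larger vessels carry smooth muscle cells in their place.

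The 4 genes of the rule encode Rgs5, which limits signaling by G protein-coupled receptors, Pdgfrb, and Kcnj8 and Abcc9, the pore and the regulatory subunit of one ATP-sensitive potassium channel. Rgs5 ranged from 0 through a median of 27.5 to 100 UMIs per cell in WT and from 0 through 27.5 to 140 in cKO. Pdgfrb had a median of 5.5 UMIs in WT and 4 in cKO, with highest values of 21 and 13. Kcnj8 had a median of 5 UMIs in WT and 7.5 in cKO, with highest values of 19 and 20, and Abcc9 8 and 9.5, with highest values of 43 and 31. The ranges of the libraries overlapped for all 4 genes. Both channel subunits had UMIs in 41 of the 58 pericytes, Kcnj8 alone in 6, Abcc9 alone in 4 and neither in 7, while among 89 endothelial cells chosen by the mirrored rule (endothelial sum of at least 5, other sums at most 4, so a low mural sum by choice) no cell held both.

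Kcnj8 and Abcc9 are also neighbors, and their annotated starts lie 130.66 kb apart on chromosome 6. Both are rule genes, so pericytes that hold both were favored by the choice of cells. The promoters of both are shown because the subunits were found together in most pericytes, beside those of Rgs5, the rule gene with the highest level, and Vtn, the most abundant of 14 pericyte genes that the rule did not use. Each is the RefSeq window on GRCm38.p6 (mm10) from 250 bases before to 50 bases after the annotated start, and so reaches into the first exon. Rgs5 lies at chr1:169655251-169655550 on the plus strand, Kcnj8 at chr6:142571565-142571864 and Abcc9 at chr6:142702225-142702524 on the minus strand, and Vtn at chr11:78498870-78499169 on the plus strand. Sequences read 5′ to 3′ along the gene, and capitals mark matches to TGGGAA on either strand, the core of the site bound by the Notch effector RBPJ.
Rgs5: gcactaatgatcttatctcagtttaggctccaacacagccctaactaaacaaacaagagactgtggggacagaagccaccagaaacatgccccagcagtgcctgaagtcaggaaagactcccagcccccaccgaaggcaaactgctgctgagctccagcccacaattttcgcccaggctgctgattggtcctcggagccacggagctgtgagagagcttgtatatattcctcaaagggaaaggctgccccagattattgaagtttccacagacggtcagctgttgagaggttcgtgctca
Kcnj8: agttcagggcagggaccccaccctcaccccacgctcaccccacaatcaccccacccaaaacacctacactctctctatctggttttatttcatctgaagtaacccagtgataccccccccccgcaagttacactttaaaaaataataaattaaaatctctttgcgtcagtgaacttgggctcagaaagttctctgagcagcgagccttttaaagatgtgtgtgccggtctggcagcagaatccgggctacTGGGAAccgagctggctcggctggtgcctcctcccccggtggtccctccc
Abcc9: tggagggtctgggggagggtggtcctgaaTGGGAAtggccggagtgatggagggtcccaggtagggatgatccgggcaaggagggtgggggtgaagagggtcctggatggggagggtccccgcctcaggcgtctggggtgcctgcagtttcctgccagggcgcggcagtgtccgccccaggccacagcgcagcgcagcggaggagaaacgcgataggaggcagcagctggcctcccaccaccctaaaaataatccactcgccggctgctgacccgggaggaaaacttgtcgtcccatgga
Vtn: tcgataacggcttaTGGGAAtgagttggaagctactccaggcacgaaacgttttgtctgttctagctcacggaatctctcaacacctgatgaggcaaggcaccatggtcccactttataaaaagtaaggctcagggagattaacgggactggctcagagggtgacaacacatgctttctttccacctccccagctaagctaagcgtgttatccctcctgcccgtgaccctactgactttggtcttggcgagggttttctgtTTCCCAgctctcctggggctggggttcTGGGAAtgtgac
TGGGAA stood once each in Kcnj8 and Abcc9, 3 times in Vtn and not in this window of Rgs5. It was held by 25.6% of the 32851 RefSeq promoters searched, and by 4 of the 14 promoters (28.6%) that matched 12 of the 18 rule and identity genes. The other motifs searched on both strands were TGTTTAC, a forkhead site present in 3.65% of all promoters and 0 of the 14, ACGTG, the core of the hypoxia response element, in 19.6% and 2 of 14, and the CArG box of serum response factor, in 1.63% and 0 of 14. No matches overlapped in the 4 promoters shown. A match describes the letters only and not a bound site.

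The label was checked with 14 pericyte genes that the rule did not use. All 14 had UMIs, 2885 in total, and with no limit on UMIs all 14 stood at least 2-fold higher in pericytes than in the other 17269 kept cells, as did 14.8% of the 25430 genes with a UMI in any kept cell, while 44.3% stood at least 2-fold lower, many of them with no UMI in pericytes. Genes were otherwise compared when 50 or more UMIs were found in pericytes or would be at the level of the other cells, and the 11 of the 14 that were compared passed only through pericytes, so their count and their median log2 ratio of 6.72 were set in part by that limit and are not read as support. For background, 12.9% of the 4264 genes compared were at least 2-fold higher in pericytes, 8.44% were at least 2-fold lower, and the median log2 ratio over all of them was -0.05. Levels are given as CPM, the summed UMI counts of a gene scaled so that all genes of a group add up to 1000000. No correction for gene length was made, and whether the levels grow with gene length was not tested. Vtn, which encodes the matrix protein vitronectin, stood at 923 CPM in pericytes, 7.12 CPM in endothelial cells and 8.74 CPM in the other cells. Ndufa4l2, a mitochondrial protein of the hypoxia response, stood at 699 CPM against 4.03 CPM in the other cells, and Higd1b at 377 CPM against 2.32 CPM. Cspg4, the NG2 proteoglycan of mural cells, stood at 174 CPM against 1.14 CPM, and Foxs1, a forkhead factor, at 106 CPM against 0.625 CPM. Vtn was not particular to pericytes, since 45 meningeal fibroblasts chosen by the mirrored rule held it at 1150 CPM. Anpep, Des and Atp13a5 had 35, 28 and 19 UMIs and were too low to be compared.

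Most of the mural UMIs outside the pericytes lay in 32 barcodes that met the mural limit and failed another limit of the rule. They held 85.5% of all UMIs of the 4 rule genes found in the other cells, and without them Rgs5 in the other cells was 1.48 CPM and not 12.9 CPM. Of these, 30 failed the endothelial limit, 16 in WT and 14 in cKO, with a median of 39431 UMIs per barcode and a median endothelial sum of 149 UMIs. Among the 30, 23 held 15 or more endothelial UMIs and had a median of 51952 UMIs, and 7 held 5 to 14 and had a median of 11709 UMIs. Scrublet, which compares cells with simulated doublets, called none of the 30 a doublet, and it called 281 kept cells in WT and 406 in cKO. Whether these barcodes hold a pericyte and an endothelial cell together was not tested. The other 2, both in cKO, failed the fibroblast limit.

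The 20 genes with the highest ratio of pericytes over the other cells, among those with at least 50 UMIs in pericytes, ran from 120-fold to 225-fold. They were led by Chp2 (225-fold), a calcineurin B-like calcium-binding protein, then Rgs5 (183-fold), the gelatinase Mmp9 (179-fold), Kcnj8 (178-fold), Abcc9 (174-fold) and Ndufa4l2 (173-fold). Receptors among them were Tlr12 (172-fold), the thromboxane receptor Tbxa2r (162-fold), the endothelin receptor Ednra (140-fold) and Pdgfrb (120-fold). Foxs1 (170-fold), Heyl (133-fold) and Tbx2 (129-fold) encode transcription factors. Higd1b (162-fold), Cspg4 (153-fold), Vstm4 (133-fold), Fam162b (132-fold), the non-canonical Notch ligand Dlk1 (131-fold), Tmem45a (125-fold) and Mrvi1 (122-fold), a regulator of smooth muscle calcium release, completed them. These ratios and their order depend on the 32 barcodes described above: without them among the other cells the 20 ran from 233-fold (Vstm4) to 2437-fold (Kcnj8), followed by Chp2 and Higd1b (2180-fold each), Abcc9 (1905-fold) and Rgs5 (1583-fold), against 8 to 309 UMIs of a gene in the other cells. Within single libraries Rgs5 was 163-fold higher in WT and 204-fold higher in cKO, Mmp9 216-fold and 128-fold, and Chp2 243-fold and 178-fold. Rgs5 was found in 94.8% of pericytes and in 1.47% of 12009 neurons, at median depths of 11908 and 12287 UMIs. Neurons were cells with 20 or more UMIs over 10 neuron genes and fewer over 10 radial glia genes. They also had a mural sum of at most 4 and lay outside the endothelial and fibroblast groups. Since Rgs5 is a rule gene, both of its shares were set in part by the choice of cells. Ednra, which the rule did not use, was found in 69.0% of pericytes and 0.192% of neurons.

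**Figure D1:**
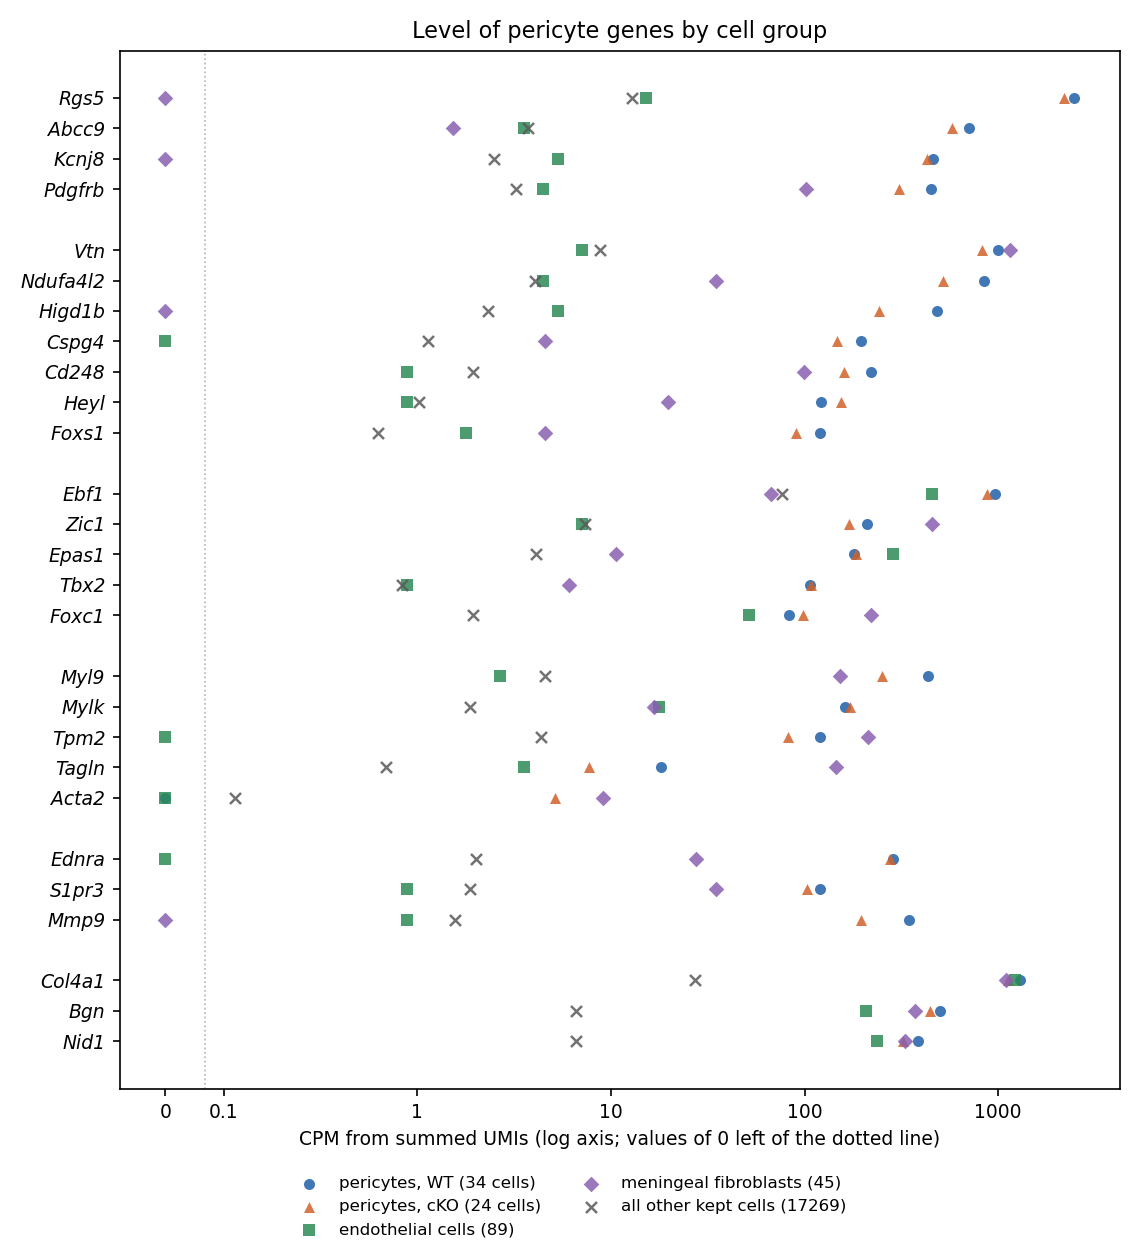
Level of pericyte genes (CPM from summed UMIs, log axis, values of 0 at the left edge) in WT and cKO pericytes, endothelial cells, meningeal fibroblasts and all other kept cells, 1 point per group. Rgs5, Abcc9, Kcnj8 and Mmp9 lie far to the right in pericytes only. Over all 58 pericytes, Vtn is as high in fibroblasts and Col4a1 is as high in endothelial cells and fibroblasts. In the 41 with a mural sum of 15 or more, Vtn stood at 1522 CPM, against 1150 CPM in fibroblasts. Col4a1 stood there at 2021 CPM, against 1217 CPM in endothelial cells and 1094 CPM in fibroblasts.

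Of 13 transcription factors listed for mural cells, 12 had UMIs and stood at least 2-fold above the other cells with no limit on UMIs, against 14.8% of all 25430 genes. The summed level of the 13 was 1839 CPM against 106 CPM. Only 8 could be compared, 7 of them through pericytes alone. Ebf1, an early B-cell factor family member, was the most abundant at 924 CPM, but it also stood at 452 CPM in endothelial cells and 76.4 CPM in the other cells. Zic1, a zinc finger factor, stood at 192 CPM, below the 457 CPM of fibroblasts, and Epas1, the hypoxia-inducible factor HIF-2 alpha, at 182 CPM, below the 286 CPM of endothelial cells. In the 41 pericytes with a mural sum of 15 or more, described below, Epas1 stood at 299 CPM, above endothelial cells. Tbx2, a T-box factor, stood at 108 CPM in pericytes and at 0.890 and 6.09 CPM in endothelial cells and fibroblasts. Tbx18, known from adult mural cells, was lower in pericytes at 37.4 CPM than in fibroblasts at 318 CPM, and Meox2 had no UMI.

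The contractile genes of vascular smooth muscle were split. Myl9, a myosin light chain, had 313 UMIs in 46 cells, Mylk, the kinase of that chain, 147 in 37, and Tpm2, a tropomyosin, 91 in 36. With no limit on UMIs, 8 of the 12 listed genes stood at least 2-fold above the other cells, against 14.8% of all 25430 genes. Of the 8, 3 (Acta2, Myocd and Lmod1) did so from no more than 3 UMIs. Tpm1 stood at 87.2 CPM against 49.0 CPM in the other cells. Acta2, the smooth muscle actin, had 2 UMIs, both in 1 cKO cell, and the smooth muscle myosin Myh11, Cnn1 and Pln had 0 of 883253 UMIs, which allows up to 3.40 CPM. Tagln had 12 UMIs in 7 cells and stood at 13.6 CPM, below 145 CPM in fibroblasts. The defining genes of mature smooth muscle were therefore at or near 0 in these cells.

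Basement membrane and matrix genes were high in pericytes, endothelial cells and fibroblasts alike. Of 16 listed, 15 stood at least 2-fold above the other cells with no limit on UMIs, against 14.8% of all 25430 genes. Their summed level was 4730 CPM in pericytes, 7000 CPM in endothelial cells, 6231 CPM in fibroblasts and 269 CPM in the other cells. In the 41 pericytes with a mural sum of 15 or more, the summed level was 7639 CPM, above endothelial cells and fibroblasts. Col4a1 and Col4a2, the chains of the main type IV collagen, stood at 1219 and 667 CPM in pericytes, against 1217 and 910 CPM in endothelial cells. In the 41 pericytes both stood above endothelial cells, at 2021 and 1101 CPM. Nid1, a linker of laminin and collagen, stood at 357 CPM against 238 CPM, and the proteoglycan Bgn at 478 CPM against 207 CPM. Sparc, a collagen-binding protein, was the reverse, with 626 CPM in pericytes and 2258 CPM in endothelial cells, and the laminin chain Lama5 had no UMI in pericytes.

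Among 14 receptors of vascular signaling, 9 stood at least 2-fold above the other cells with no limit on UMIs, against 14.8% of all 25430 genes. By any amount, 3 of the 14 receptors stood below the other cells. Ednra was the most abundant, with 249 UMIs in 40 cells and 282 CPM, against 0 in endothelial cells and 27.4 CPM in fibroblasts. S1pr3, a receptor for sphingosine 1-phosphate, stood at 112 CPM against 0.890 CPM in endothelial cells. Notch1 stood at 177 CPM and Eng, a TGF-beta co-receptor, at 63.4 CPM, against 184 and 337 CPM in endothelial cells. Tgfbr1 stood at 61.1 CPM against 114 CPM in the other cells. Pdgfra, which marks fibroblasts at 270 CPM, had no UMI in pericytes. Of 10 ligands none had enough UMIs to be compared: Tgfb1 had 47 UMIs, the Notch ligand Jag1 40 and Angpt1, which signals to endothelial Tek, 38, while Pdgfb had 4 and stood at 181 CPM in endothelial cells.

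Markers of other cell types were examined because the rule used few of them. Of 14 further endothelial genes, Sox17, Robo4 and Ocln had no UMI and Cdh5 had 2, whereas Emcn (113 CPM against 159 CPM in endothelial cells) and Esam (92.8 against 419 CPM) were found in 34 and 29 pericytes, so the endothelial list was not at 0 as a whole (277 CPM, against 3993 CPM in endothelial cells and 77.5 CPM in the other cells). In the 41 pericytes with a mural sum of 15 or more, Emcn stood at 186 CPM, above endothelial cells, and Esam at 155 CPM, below them. Of 10 further fibroblast genes, Slc6a13, Aldh1a2, Crabp2 and Dpt had no UMI, and Igf2 (608 CPM), Col3a1 (248 CPM), Fbln1 (106 CPM) and Col1a2 (97.4 CPM) were at least 2-fold above the other cells, with fibroblasts at 751, 2597, 154 and 1758 CPM. In the 41, Igf2 (972 CPM) and Fbln1 (161 CPM) stood above fibroblasts, and Col3a1 (412 CPM) and Col1a2 (159 CPM) below them. Microglia genes had 17 UMIs in all, with Ptprc, Aif1 and 4 others at 0. Red blood cell genes stood at 122 CPM, led by Hbb-bs with 40 UMIs, below 834 CPM in the other cells.

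The pericytes were not uniform. The mural sums left a gap with no member at 13 or 14, and 41 cells (25 WT, 16 cKO) had a sum of 15 or more and 17 (9 WT, 8 cKO) a sum of 5 to 12. A dividing line in this gap was set after the values were seen. In the 41, all cells held Vtn (1 to 45 UMIs, median 19) and all held Ndufa4l2, and the 12 identity genes other than Rgs4 and Notch3, which neural cells also hold, ranged from 11 through 58 to 118 UMIs. In the 17, these 12 genes ranged from 0 through 1 to 15 UMIs and Vtn was found in 6. Of the 17, 10 held 50 or more UMIs of 26 neural genes (10 of cortical neurons, 10 of radial glia and 6 of ganglionic eminence neurons), between 83 and 2564, at a median depth of 31544 UMIs, and Vtn was found in 1 of these 10. The other 7 held 0 to 13 such UMIs at a median depth of 1508 UMIs, Vtn was found in 5 of them, and their mural genes stood at 3777 CPM, against 6253 CPM in the 41 and 193 CPM in the 10. So 10 of the 58 barcodes carried the rule genes at a low level in a deep profile with neural UMIs, and together they held 39.2% of all pericyte UMIs. Of the 41, 3 (1 WT, 2 cKO) also held 50 or more neural UMIs, 116 to 188 each, or 3.53, 4.82 and 6.94 per 1000 UMIs of the cell, against 4.45 to 30.1 in the 10. By the 12 genes the label held in the 41 and not in the 10, of which 3 had any. Each of the 7 had at least 2 UMIs of the 12 genes, but 1 cKO barcode among them had no more than 2. That was 0.470 per 1000 UMIs of the cell, against 1.97 or more in the 41, beside 3.05 neural UMIs per 1000. The label was therefore not borne out for this barcode, and for the rest of the 7 it held by these genes. These genes alone do not set the 7 apart from fibroblasts, of which 43 of 45 held them (median 20 UMIs, 1372 CPM, against 3512 CPM in the 7), while 43 of 89 endothelial cells held up to 12 UMIs (102 CPM).

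At the limit itself, the 5 members with a mural sum of 5 held 1113 to 85196 UMIs, and Vtn was found in 1 of them. The 5 cells just outside, with a sum of 4, held 11742 to 22923 UMIs, no Vtn and 70 to 515 neural UMIs. The deepest member, a WT barcode with 85196 UMIs and a mural sum of 5, held 1870 UMIs of Fabp7, a fatty acid-binding protein of radial glia, whereas no other member held more than 31. Summed over all 58, the radial glia genes therefore stood at 5799 CPM (WT) and 1179 CPM (cKO), and in the 41 at 754 and 1021 CPM. The neuron genes stood at 1994 CPM (WT) and 2607 CPM (cKO) over all members, and at 653 and 1181 CPM in the 41, led by Stmn2 with 359 UMIs over all. In the 41, 1 cell held 49.5% of the neuron gene UMIs in WT and 1 cell 66.0% in cKO, and without both the levels were 371 and 456 CPM, while without the cKO cell alone cKO lay below WT. For the radial glia genes, 1 other cell held 17.4% of the UMIs in WT and 1 other cell 46.3% in cKO. Without both of these other cells the radial glia levels were 659 and 614 CPM. Scrublet called 1 pericyte in each library a doublet, and whether the neural UMIs come from a second cell or from free RNA was not tested.

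**Figure D2:**
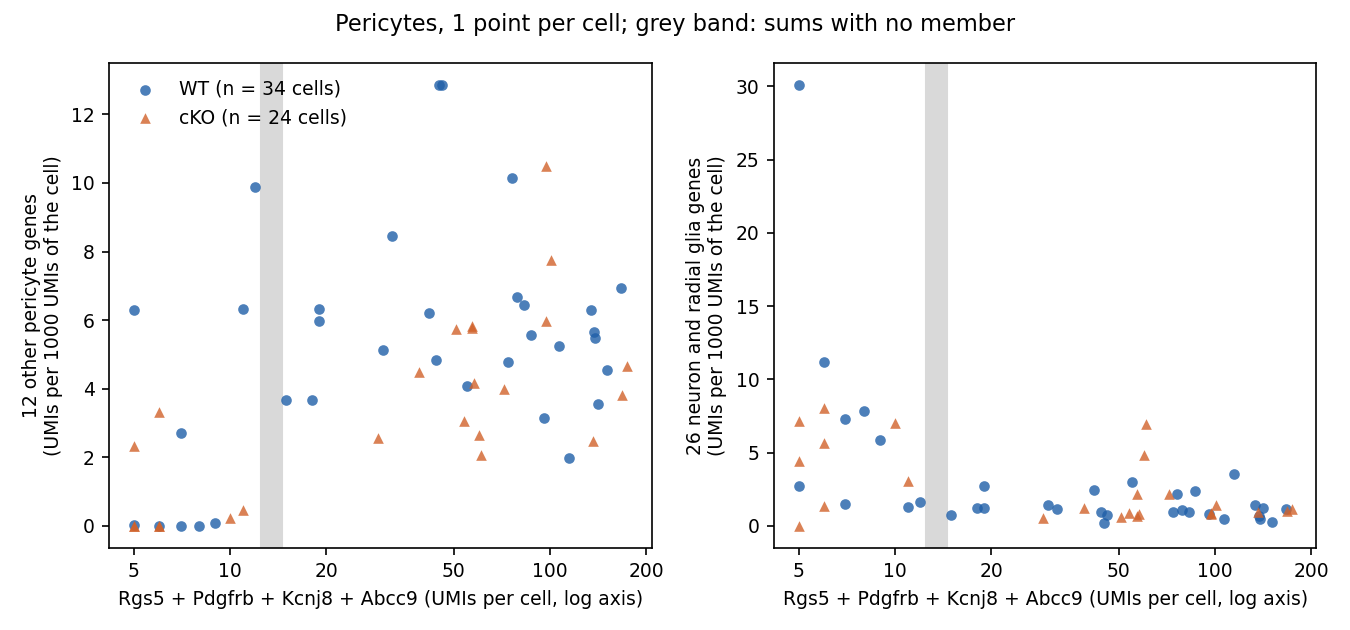
Each point is 1 pericyte, with the mural sum in UMIs on a log axis against the 12 identity genes other than Rgs4 and Notch3 (left) and 26 neural genes (right), both per 1000 UMIs of the cell. The neural genes are those of cortical neurons, radial glia and ganglionic eminence neurons. Cells with a sum of 15 or more all hold identity gene UMIs, 38 of these 41 hold at most 3.01 neural UMIs per 1000 and the other 3 between 3.53 and 6.94, and the 17 below the grey gap include 10 with neural UMIs and almost no identity gene UMIs.

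G2/M genes, which mark cells preparing for or in mitosis, split the 41 pericytes with higher mural sums. Per 1000 UMIs of the cell, the 12 G2/M genes ranged from 0 through 0.323 to 14.7 in WT and from 0 through 0.228 to 9.25 in cKO. A gap lay between 2.84 and 4.66, and above 4, a line set after the values were seen, were 5 of 25 WT cells (20%, exact binomial interval 6.83 to 40.7%) and 4 of 16 cKO cells (25%, 7.27 to 52.4%). The intervals overlap widely, and with cells of 1 embryo per genotype they say nothing of a difference between genotypes. With every cell thinned to 3000 UMIs, which left out 7 of the 58, at least 1 G2/M UMI was found in 18 of 29 WT pericytes (62.1%, 42.3 to 79.3%) and in 15 of 22 cKO pericytes (68.2%, 45.1 to 86.1%), and without thinning in 82.4% and 83.3%. The order of the libraries turned at 2000 UMIs (58.1% in WT, 45.5% in cKO) and, at 3000 UMIs, in the cells with a mural sum of 15 or more (69.6% and 56.3%), all with wide intervals, so no order is read from these shares. At the same depth the share was 57.4% in 54 endothelial cells, 54.5% in 44 fibroblasts, 94.4% in 1640 progenitors (other cells with 50 or more UMIs of 10 radial glia genes and more than 5 times as many of these as of 10 neuron genes) and 35.1% in 998 neurons of 1000 drawn, which should mostly lack these genes, so a single UMI says little. With at least 3 UMIs asked for, a line added after the values were seen, it was 39.2% in pericytes (25.8 to 53.9%), 29.6% in endothelial cells, 18.2% in fibroblasts, 79.2% in progenitors and 5.21% in neurons. The topoisomerase Top2a, the proliferation antigen Mki67 and the kinase Cdk1 stood at 209, 151 and 112 CPM in pericytes.

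**Figure D3:**
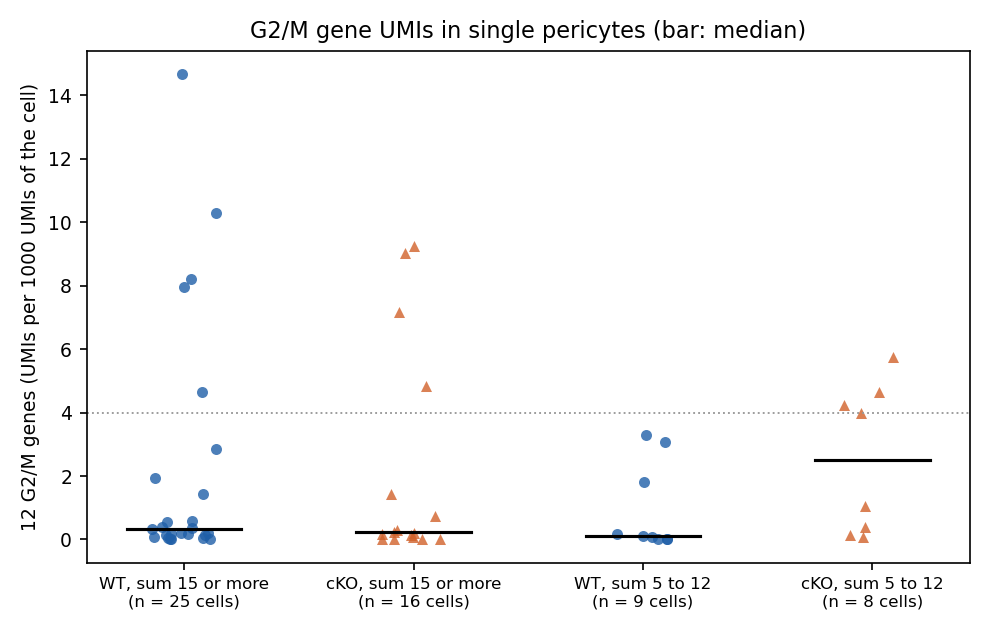
UMIs of 12 G2/M genes per 1000 UMIs of each pericyte, by library and mural sum, with 1 point per cell and a bar at the median. Among cells with a mural sum of 15 or more, 5 of 25 in WT and 4 of 16 in cKO lie above the dotted line at 4, and the rest lie at or below 2.84.

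Pericytes made up 0.425% of kept cells in WT (0.294 to 0.593%) and 0.258% in cKO (0.165 to 0.383%), a log2 ratio of -0.72 with an interval from -1.54 to 0.07 that includes 0. There were 0.694 pericytes per endothelial cell in WT and 0.60 in cKO, from 49 and 40 endothelial cells. With a mural sum of 15 or more, the shares were 0.312% and 0.172%. The numbers of cells caught depend on dissection and dissociation, so a share of captured cells is not a share of the tissue. Median depth was 10470 UMIs per pericyte in WT and 12762 in cKO, and the median mitochondrial share 3.11% and 2.40%, above the 1.61% and 1.59% of all kept cells.

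Between the genotypes, the share of genes past 2-fold was smaller in the 41 pericytes than over all 58. Over all 58 pericytes, 272 of 3713 genes compared (7.33%) were at least 2-fold higher in cKO and 98 (2.64%) at least 2-fold lower, where genes with 50 or more UMIs over both libraries were compared. In the 41 pericytes with a mural sum of 15 or more, 44 of 1971 genes (2.23%) were at least 2-fold higher in cKO and 24 (1.22%) at least 2-fold lower. Of the 272 higher genes 70 could still be compared there and 26 were still past 2-fold, and of the 98 lower genes 34 and 15.

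The rule genes had these levels in WT and cKO. Rgs5 stood at 2470 and 2198 CPM, a log2 ratio of -0.17 (-0.30 to -0.04), and at -0.10 (-0.23 to 0.03) in the 41. Kcnj8 stood at 460 and 426 CPM (-0.11, -0.41 to 0.19) and Abcc9 at 709 and 575 CPM (-0.30, -0.55 to -0.05). Pdgfrb stood at 452 and 306 CPM (-0.56, -0.90 to -0.24), and at -0.50 (-0.84 to -0.16) in the 41. None of the 4 was 2-fold apart.

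Of the 11 identity genes compared, none was at least 2-fold higher in cKO and 1 was at least 2-fold lower, and their median log2 ratio was -0.41, against -0.02 over all genes. In the 41 pericytes none was past 2-fold and the median was -0.38, against 0.00 over all genes there. Higd1b had 0 to 50 UMIs per WT cell (median 4) and 0 to 17 per cKO cell (median 2.5), so the ranges overlapped, and it stood at 484 and 241 CPM, a log2 ratio of -1.0 (-1.36 to -0.65). A single WT cell held 20.9% of the WT Higd1b UMIs, and without the cell with most Higd1b UMIs in each library the ratio was -0.98. Ndufa4l2 had 0 to 40 UMIs per WT cell (median 11.5) and 0 to 21 per cKO cell (median 9.5), and stood at 842 and 516 CPM (-0.71, -0.96 to -0.46). Vtn stood at 1002 and 822 CPM (-0.29, -0.49 to -0.08). Heyl, the Notch target, had 60 UMIs in each library and stood at 121 and 154 CPM (0.34, -0.20 to 0.88), and Notch3 at 207 and 128 CPM (-0.69, -1.20 to -0.18), with -0.38 (-0.95 to 0.17) in the 41. In the other cells of the libraries the ratios were -0.49 for Higd1b, -0.41 for Ndufa4l2, 0.31 for Vtn and 0.36 for Notch3, and most Higd1b UMIs there (92.6%) lay in the 32 barcodes described above.

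Of other genes higher in pericytes than in the other cells, Tppp3, Foxd1 and Fam162b were at least 2-fold lower in cKO and Mmp9 and Myl9 were not. Foxd1 was not particular to pericytes, at 64.5 CPM against 183 CPM in fibroblasts. Mmp9 was found in 20 WT and 11 cKO cells, with highest values of 26 and 14 UMIs, and stood at 344 and 195 CPM (-0.82, -1.23 to -0.42). Myl9 had a median of 4 UMIs in both libraries and highest values of 21 and 15, and stood at 435 and 252 CPM (-0.79, -1.15 to -0.44). Tppp3, a tubulin polymerization-promoting protein, had 46 UMIs in 16 WT cells and 10 in 9 cKO cells, with highest values of 10 and 2, and its log2 ratio was -1.86 (-3.01 to -0.85) over all members and -1.80 (-2.95 to -0.79) in the 41. Foxd1 had 43 UMIs in 16 cells and 14 in 7 (-1.28, -2.26 to -0.38), and Fam162b 46 in 18 and 17 in 11 (-1.09, -1.99 to -0.26). Mylk (0.09), Ebf1 (-0.13), Ednra (-0.07), Tbx2 (0.01) and Epas1 (0.04) had log2 ratios near 0 over all 58, each with an interval that includes 0, but in the 41 Ebf1 was -0.27 (-0.48 to -0.05). Basement membrane genes had a median log2 ratio of -0.21 over 12 genes, none past 2-fold, and -0.15 in the 41. The 4 fibroblast genes compared had a median of -0.16 and the 5 receptors -0.22, none past 2-fold.

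**Figure D4:**
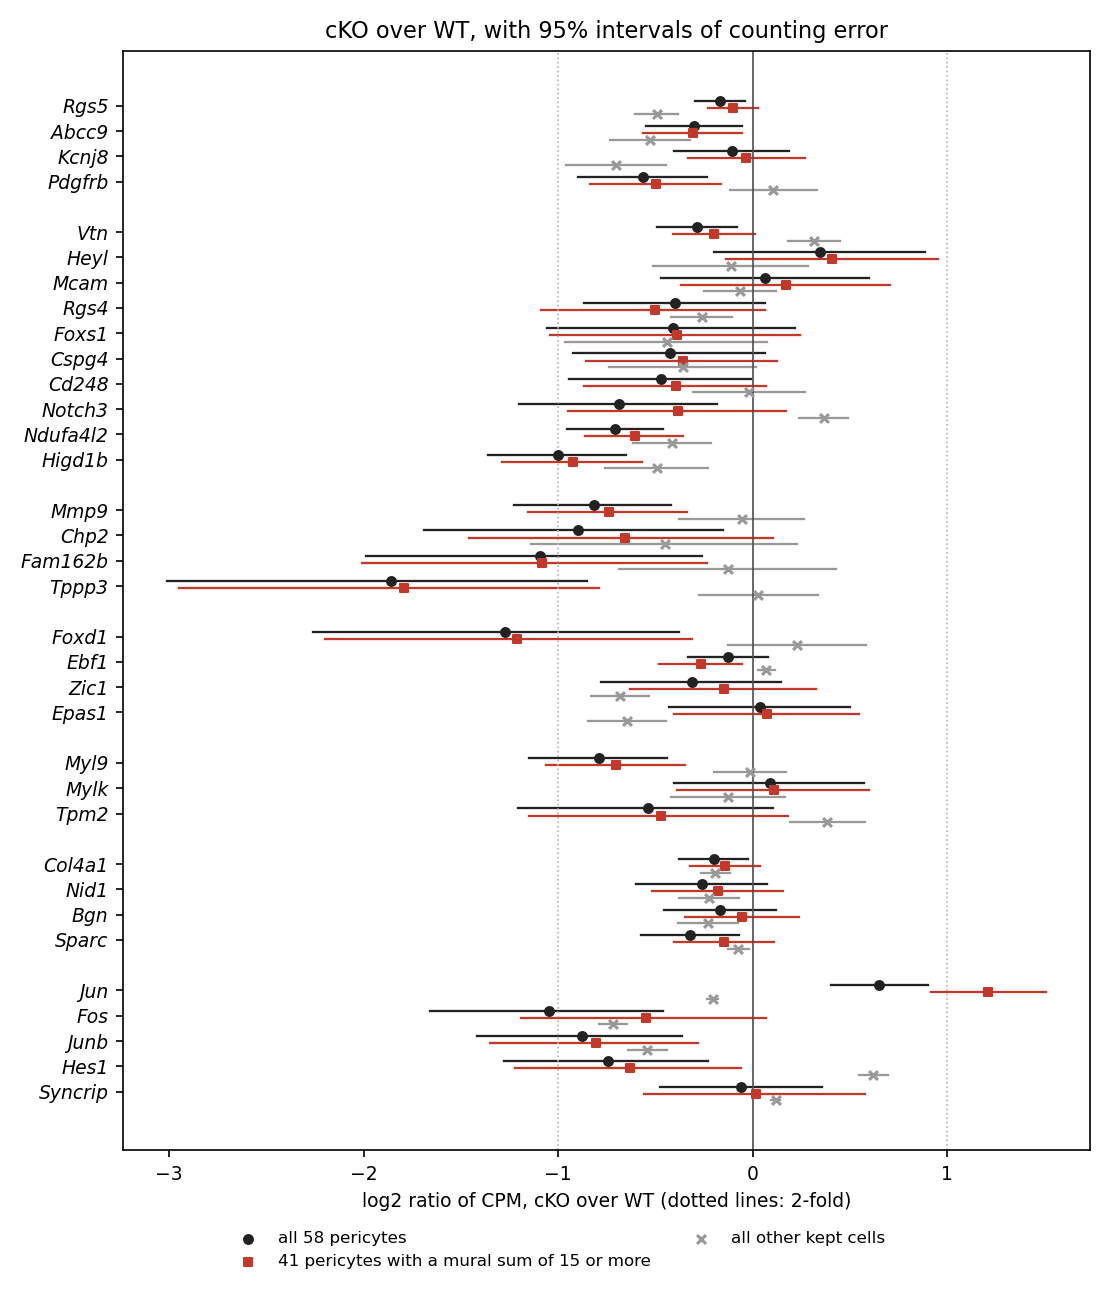
Log2 ratio of CPM, cKO over WT, with 95% intervals of counting error, for named genes in all 58 pericytes, in the 41 with a mural sum of 15 or more and in all other kept cells. Higd1b, Ndufa4l2, Mmp9, Myl9, Tppp3 and Foxd1 lie left of 0 in both sets of pericytes, Jun lies right of 0, and Rgs5, Kcnj8 and Syncrip lie close to 0, with Ebf1 left of 0 in the 41.

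Immediate early genes are induced within minutes of a stimulus and also by cell dissociation. Of 10 listed, 7 stood at least 2-fold above the other cells with no limit on UMIs, against 14.8% of all 25430 genes. The summed level of the immediate early genes in the 41 pericytes was 1938 CPM (WT) and 2305 CPM (cKO), against 472 and 386 CPM in the other cells. Endothelial cells stood at 1688 CPM (WT) and 743 CPM (cKO) and fibroblasts at 2484 and 1327 CPM, so the level was not particular to pericytes and these cells were lower in cKO. The log2 ratio of the summed level in the 41 was 0.25 (0.08 to 0.42), 0.36 (0.17 to 0.56) without the cell with most of these UMIs in each library, and 0.09 (-0.10 to 0.27) without that of cKO alone. Over all 58 it was 0.02 (-0.15 to 0.18), an interval that includes 0. Jun, a subunit of the AP-1 factor, had 0 to 21 UMIs (median 2) in the 25 WT cells and 0 to 61 (median 8) in the 16 cKO cells, a log2 ratio of 1.21 (0.92 to 1.51). Over all 58 it was 0.65 (0.40 to 0.90), where 1 WT cell held 35.0% of the WT Jun UMIs, and in the other cells -0.21. Junb (-0.88, -1.42 to -0.36) and Fos (-1.05, -1.66 to -0.46) went the other way over all 58, and in the 41 Junb was -0.81 (-1.35 to -0.28) and Dusp1, a phosphatase of MAP kinases, -1.09 (-2.23 to -0.06), from 31 and 11 UMIs, whereas Fos was -0.55 with an interval (-1.19 to 0.07) that includes 0. Without the WT cell with most Dusp1 UMIs, Dusp1 in the 41 was -0.60 (-1.80 to 0.51), an interval that includes 0.

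The most extreme ratios over all 58 pericytes were ranked among genes found in at least 10 of them, and many rested on 1 cell. Hes5 (-3.14), found in 4 cells, and Xist (at least 6.96, from 0 UMIs in WT and 294 in cKO) were not ranked. Of the ranked genes, the 8 highest in cKO were Lrfn5, Cdh13, Nrxn3, Etl4, Arpp21, Erbb4, Bcl11b and Ralyl, with log2 ratios from 3.37 to 4.70, and for 3 of them 1 cell held more than 50% of the cKO UMIs. Cdh13, a cadherin, had 9 UMIs in 5 WT cells and 176 in 10 cKO cells, and 1 cKO cell held 33.0% of the latter. Of the ranked genes, the 8 lowest were Fabp7, Luzp2, Ddt, Psat1, Asrgl1, Tppp3, Phgdh and Efna5, from -3.82 to -1.72, and for 6 of them 1 cell held more than 50% of the WT UMIs. Fabp7 had 1971 UMIs in WT and 110 in cKO, 94.9% of the WT UMIs lay in the deepest member, and in the 41 its log2 ratio was -0.13 (-0.61 to 0.33). Without the cell with most UMIs in each library the ratio was 1.38 for Psat1 and 1.16 for Phgdh, enzymes of serine synthesis, and 0.31 for Asrgl1, each above 0. Of these 16, Tppp3 alone was at least 10-fold higher in pericytes than in the other cells (36.4-fold).

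Syncrip itself had 0 to 26 UMIs per WT pericyte (median 2) and 0 to 17 per cKO pericyte (median 1.5), in 24 and 20 cells. It stood at 233 and 223 CPM, a log2 ratio of -0.06 (-0.48 to 0.35), and at 0.12 (0.09 to 0.14) in the other cells, and since UMIs come mainly from the 3′ end of the RNA, outside the deleted exons, they do not check the deletion. Its paralog Hnrnpr stood at 0.39 (-0.04 to 0.82). Of 10 genes that the study names for early or late stages or fates of progenitors (Dbi, Hes1, Hes5, Hmga2, Nedd4, Neurod2, Nfib, Nfix, Top2a and Zbtb20), 9 could be compared in pericytes, with 2 at least 2-fold higher and 2 at least 2-fold lower than in the other cells and a median log2 ratio of 0.58, against 12.9% and 8.44% of all genes compared. The list came from the study of these samples and is no independent evidence. Hes1, a Notch target repressor, stood at 166 CPM against 31.3 CPM, and at 202 CPM (WT) and 121 CPM (cKO) in pericytes (-0.75, -1.28 to -0.23), against 0.62 (0.55 to 0.69) in the other cells. Hes5, its relative in radial glia, stood at 82.6 CPM against 32.9 CPM, but 1 cell held 90.4% of its 73 UMIs. Neurod2 (-1.63) and Nfix (-1.44), factors of neuronal differentiation, were the lower ones. Between cKO and WT pericytes, Nfib (1.27, 1.11 to 1.43) and Neurod2 (1.05, 0.50 to 1.61) were at least 2-fold higher and Hes5 (-3.14) and Dbi (-1.65, -1.93 to -1.39) at least 2-fold lower, against 7.33% and 2.64% of all genes compared. One WT barcode held 98.5% of the WT Hes5 UMIs, the 41 held 0 Hes5 UMIs in WT and 5 in cKO, all 5 in 1 cell, so the lower level in cKO did not hold there, and 63.0% of the Dbi UMIs lay in 1 cell. In the 41, Nfix was 1.49 (0.77 to 2.26), past 2-fold, Nfib 0.98 (0.67 to 1.30), Top2a 0.92 (0.35 to 1.51), Dbi 0.38 (-0.03 to 0.79) and Neurod2, from 29 UMIs, -0.30 (-1.53 to 0.86). In the 41, 1 cKO cell held 64.7% of the cKO Nfix UMIs and 1 cell 63.9% of those of Nfib. Without the cell with most UMIs in each library, Nfix was 1.13 (-0.03 to 2.36), Nfib 0.64 (0.15 to 1.13) and Neurod2 0.84 (-1.73 to 3.61), and without that of cKO alone Nfix was 0.18 and Nfib -0.30.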

How the data were processed

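The authors dissociated dorsal cortex, made 10x Genomics Chromium 3′ libraries and counted them with Cell Ranger 7.0.0, named in the file header, on mm10, named in their processing notes. The deposited values are raw UMI counts per gene and barcode, not normalized. The counting of introns is not given in the sources used here. Bulk RNA-seq and LACE-seq were not analysed here.

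Members and gene lists were chosen with earlier results of these data known. Sample groups came from the genotype label. UMIs were summed over the cells of a group and scaled to CPM. Genes with 50 or more UMIs were compared at a limit of 2-fold, and a count of 0 was replaced by a floor of 3 counts in fold changes. Intervals are 95% (exact binomial for shares, exact conditional for ratios) and cover counting error only. Total depth was 100172392 UMIs in WT and 111313526 in cKO. Doublets were kept and called with Scrublet (scanpy 1.11.5) for an alternative. Between the libraries 22 barcode sequences were shared, 0 of them involving a pericyte. Named genes were the rule genes, the members with most UMIs of each of 23 lists, the 20 genes with the highest ratio over other cells, and the 8 highest and 8 lowest genotype ratios. Genotype ratios were ranked among genes found in at least 10 pericytes, and Xist was not ranked. Genes at extreme ratios in the 41 cells were also examined, chosen after their values were seen, as were the values without 1 cell there. In place of a list of progenitor genes from earlier work, 10 genes named in the study's text are reported. The ratio code was tested on simulated data. Python 3.11.15, numpy 2.4.6, scipy 1.17.1 and pandas 2.3.3 were used. Promoters and their motifs came from RefSeq. Alternatives were the limits of the rule, depth, doublets, minimum UMIs, scaling and the mean over cells.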

Additional observations from a re-analysis of the deposited data

How the results depend on the processing

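The count and share of pericytes moved with the rule: without limits on endothelial and fibroblast UMIs the shares were 0.624% in WT and 0.429% in cKO, and with a mural sum of 3 the cKO share was 0.408%. Under the 10 alternatives the log2 ratio of the shares stayed below 0 and its change stayed within its counting interval. Genes at least 2-fold higher in pericytes than in the other cells numbered 552, against 1117 with a minimum of 20 UMIs and 115 with 200. Genes at least 2-fold higher in cKO pericytes numbered 272, against 639 and 61 with these minimums, 75 with a mural sum of 10 or more, 44 with 15 or more, and 170 with endothelial and fibroblast sums of at most 1. Genes at least 2-fold lower numbered 98, against 368 and 8 with these minimums, and 21 and 24 with the higher mural sums. Fewer genes reach a higher minimum, and for the mural sums the cause was not tested. The share of pericytes with G2/M UMIs was 62.1% in WT and 68.2% in cKO, 82.4% in WT without thinning, and 37.9% and 40.9% with at least 3 UMIs asked for, a limit added after the data were seen, like the mural sum of 15. Of 125 genotype ratios of named genes recomputed 995 times, 830 stayed within their counting interval, 151 moved and 14 changed sign. Those that changed sign were 5 genes of radial glia or metabolism. With mural sums of 10 and of 15, Asrgl1 went to 0.53 and 0.63, Dbi to 0.31 and 0.38, Hes5 to 2.63 (from 1 UMI in WT and 5 in cKO, -0.53 to 8.20) and to at least 1.14 (from 0 in WT, set to 3, and 5 in 1 cKO cell), Phgdh to 2.63 and 2.73, and Psat1 to 1.90 and 1.99. Without the cell with most UMIs of the gene in each library, Asrgl1 went to 0.31, Dbi to 0.013, Phgdh to 1.16 and Psat1 to 1.38. Of 14 list medians recomputed 56 times, 30 stayed and 26 moved. No paired analysis was possible because each genotype had 1 single-cell library. With 58 cells of 883253 UMIs, genes under 50 UMIs could not be compared, shares rest on 34 and 24 cells, and no value holds a spread between embryos.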

Other observations

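Lists of glycolysis and of DNA replication genes gave 1 call each, against 12.9% of all genes compared, which is no result about the lists. Of 5 glycolysis and hypoxia genes compared, 1 was at least 2-fold higher than in the other cells: Aldoa, an aldolase of glycolysis, stood at 439 CPM against 108 CPM, with 221 CPM in endothelial cells and 263 CPM in fibroblasts, and at 491 CPM in the 41 pericytes with a mural sum of 15 or more. The summed level of the list was 1316 CPM in pericytes and 751 CPM in the other cells. Of 3 replication genes compared, Mcm6, a subunit of the replicative helicase, was at least 2-fold higher, at 89.4 CPM against 38.1 CPM, and the list stood at 727 CPM (WT) and 615 CPM (cKO) among the 41.

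Among the 41 pericytes, the genes at the ends of the cKO over WT ratios were named after their values were seen. Xist, at a log2 ratio of at least 6.09, was left out. The highest of the rest were Nrg3 (log2 ratio 2.18), Grik2 (2.03), Ctnnd2 (1.99), Pcdh9 (1.92), Stmn2 (1.73) and Rtn1 (1.72), and all 6 stood lower in pericytes than in the other cells when all 58 were summed. For each, 1 cKO cell held 49.2% to 91.5% of the cKO UMIs. Without the cell with most UMIs in each library, Grik2 was 1.90 (0.49 to 3.53), Ctnnd2 1.96 (0.93 to 3.1) and Pcdh9 1.77 (0.61 to 3.07), whereas Stmn2 (0.81), Rtn1 (0.64) and Nrg3 (-0.67) had intervals that include 0. Without the cKO cell alone, Ctnnd2 kept an interval above 0 (1.2, 0.36 to 2.07) and the other 5, from -1.19 for Nrg3 to 0.85 for Grik2, did not. The lowest were Robo2 (-2.00), Tppp3 (-1.80), Nkain3 (-1.54), Ifitm1 (-1.37), Lsamp (-1.35) and Pold4 (-1.34). Robo2 and Nkain3 had the opposite sign over all 58, at 0.38 (0.16 to 0.60) and 0.44 (0.13 to 0.75). A single WT cell held 71.0% of the WT Robo2 UMIs of the 41, 72.1% for Lsamp and 46.6% for Nkain3. Without the cell with most UMIs in each library, Robo2 was -1.41 (-3.01 to -0.04), Nkain3 -2.43 (-4.39 to -0.93), Lsamp -1.07 (-2.70 to 0.35), Tppp3 -1.65 (-2.96 to -0.52), Pold4 -1.46 (-2.57 to -0.47) and Ifitm1 -1.13 (-2.32 to -0.05). Without the WT cell alone, Robo2 (-0.39), Nkain3 (-0.71), Lsamp (0.42) and Ifitm1 (-0.99) had intervals that include 0. Among the 6, Tppp3, Ifitm1 and Pold4 stood 36.4-fold, 62.6-fold and 4.76-fold higher in pericytes than in the other cells. Ifitm1, an interferon-induced membrane protein, had 42 UMIs in 15 WT cells and 12 in 11 cKO cells, and in the other cells its log2 ratio was 1.33. Fibroblasts held Ifitm1 at 189 CPM, above the 61.1 CPM of pericytes. They held 27 of its 54 WT and 97 of its 151 cKO UMIs in the other cells, from 16 and 29 fibroblasts. Within fibroblasts the log2 ratio of Ifitm1 was 0.93 (0.30 to 1.61).

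Of 21 cKO pericytes with more than 7000 UMIs, 3 held no Xist UMI (14.3%, exact binomial interval 3.05 to 36.3%), at depths of 7711, 7809 and 12050 UMIs and with 0 UMIs of Y-linked genes. Among the 7095 other cKO cells above that depth 33 held none (0.465%). The depth limit was set after the values were seen, and the cause was not tested.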
